A study of Mus musculus with 6 samples.

Results

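Gene desert features were defined as the rows of the authors' deposited table that overlapped no GENCODE M21 gene body on either strand and lay more than 100 kb from the nearest start of a protein-coding gene on mm10. Of the 34518 rows of the table, 3411 met this rule. The libraries came from left atria of adult mice of the outbred CD1 stock and formed 2 groups. FOG2_OE (3 libraries) carried the genotype FOG2 Overexpression and WT (3 libraries) was wild type, and all animals of both groups, which the labels call DTG and NTG, were kept without doxycycline for 1 week. The promoter or cell type that drove the transgene is not given in the sources used here. RNA was depleted of ribosomal and polyadenylated RNA before sequencing, and the study asked which noncoding transcripts of the atrium change when FOG2 is raised. FOG2, encoded by Zfpm2, is a cofactor that binds GATA factors and can repress or activate their targets.

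Gene deserts are long stretches of a chromosome without protein-coding genes. Many flank genes of developmental regulators and hold distal enhancers, which are bound by transcription factors such as GATA4 and TBX5 in atrial muscle and act on genes far away. Active enhancers are themselves transcribed, often into short-lived RNAs without a poly(A) tail, and the same deserts can hold long noncoding RNAs and the primary transcripts of microRNAs.

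The 6 columns of the table named for the samples held fitted values, which within a group differed only by library size. Each group therefore has 1 level per feature, given here as fitted CPM (counts scaled to a common library size), and no spread between its 3 libraries can be shown. Effective libraries held 72464183 to 84907173 counts in FOG2_OE and 71180401 to 82251201 in WT. The row over Zfpm2 itself, MSTRG.29831, stood at 416 CPM in FOG2_OE against 0.484 CPM in WT, a log2 fold change of 9.74 (adjusted p = 2.44e-117) per the authors' deposited table. As a check of the tissue, rows over 5 of 6 atrial muscle marker genes summed to 9.55 CPM in FOG2_OE against 24.2 CPM in WT, and 8 of these 16 rows were called lower. Of these calls 5 lay over Kcnj3, whose 8 rows summed to 2.91 CPM in FOG2_OE against 13.5 CPM in WT, and the 3 rows over Myl4, none called, summed to 2.94 CPM in FOG2_OE against 2.59 CPM in WT. Rows over fibroblast markers summed to 1.06 CPM in FOG2_OE against 1.05 CPM in WT, those over endothelial markers to 2.0 CPM in FOG2_OE against 1.66 CPM in WT, and 0 of these 7 and 14 rows were called. The epicardial and the neuronal and glial list had 1 row each, neither called. No row overlapped a marker of ventricular muscle, smooth muscle or immune cells. The atrial muscle marker Nppa also had 0 rows in these left atria, so that a lack of rows does not show the absence of a cell type. The part of the lower atrial marker rows in the results on deserts was not tested, and in bulk tissue fewer cells of a type and less RNA per cell cannot be told apart.

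Deserts are not empty of annotation in every catalogue. Of the 3411 features, 642 overlapped a gene of RefSeq on GRCm38.p6, 384 of them a long noncoding RNA gene, and 212 overlapped a protein-coding gene but no such RNA gene. Among the 442 called features, 59 overlapped a RefSeq gene. Of the 642 features over a RefSeq gene 7.32% were called lower and 1.87% higher. Of the 2769 over none, 12.6% were called lower and 1.19% higher. The 384 over a long noncoding RNA gene had 10.7% lower and 2.34% higher calls. The promoters of 5 of those noncoding RNAs are shown because called features described here lie along them or close to them. Each runs from 250 bases before to 50 bases after a RefSeq start, 5′ to 3′ on the gene's strand, and capitals mark GATA motifs (AGATAA, with T also allowed as the first base and G as the last) and T-box motifs (AGGTGT or GGTGTGA), searched on both strands with overlaps kept.
Gm42015 promoter, chr5:118843261-118843560, minus strand: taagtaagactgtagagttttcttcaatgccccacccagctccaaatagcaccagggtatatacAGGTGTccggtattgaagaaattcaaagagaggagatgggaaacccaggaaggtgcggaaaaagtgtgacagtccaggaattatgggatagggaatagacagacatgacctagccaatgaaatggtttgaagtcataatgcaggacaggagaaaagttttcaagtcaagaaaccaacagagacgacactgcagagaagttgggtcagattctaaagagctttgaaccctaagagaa
Gm33474 promoter, chr5:107048327-107048626, plus strand: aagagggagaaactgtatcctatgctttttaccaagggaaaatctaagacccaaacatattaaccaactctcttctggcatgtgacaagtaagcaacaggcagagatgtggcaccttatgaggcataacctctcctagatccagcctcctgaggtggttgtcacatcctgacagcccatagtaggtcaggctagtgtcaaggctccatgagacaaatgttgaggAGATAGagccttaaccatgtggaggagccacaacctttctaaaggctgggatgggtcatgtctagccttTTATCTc
Gm38512 promoter, chr3:35405901-35406200, minus strand: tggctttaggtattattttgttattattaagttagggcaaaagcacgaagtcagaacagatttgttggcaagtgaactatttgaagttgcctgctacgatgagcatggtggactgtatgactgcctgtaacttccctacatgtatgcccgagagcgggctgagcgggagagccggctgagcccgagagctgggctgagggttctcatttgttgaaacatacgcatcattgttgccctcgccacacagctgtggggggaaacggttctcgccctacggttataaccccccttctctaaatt
Gm30786 promoter, chr11:65649803-65650102, minus strand: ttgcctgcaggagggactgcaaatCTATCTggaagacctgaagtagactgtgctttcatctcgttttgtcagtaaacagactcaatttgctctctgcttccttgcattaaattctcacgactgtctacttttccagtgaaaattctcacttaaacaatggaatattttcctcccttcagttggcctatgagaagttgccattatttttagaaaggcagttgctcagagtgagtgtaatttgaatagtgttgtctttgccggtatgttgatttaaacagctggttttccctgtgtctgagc
Gm10494 promoter, chr17:79510437-79510736, minus strand: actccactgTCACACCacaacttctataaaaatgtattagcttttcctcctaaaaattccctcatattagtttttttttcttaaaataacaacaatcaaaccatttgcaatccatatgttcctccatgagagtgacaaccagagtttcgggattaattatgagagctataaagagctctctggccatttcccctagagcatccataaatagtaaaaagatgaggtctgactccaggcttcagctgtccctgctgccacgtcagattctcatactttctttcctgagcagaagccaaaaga
The Gm33474 window held 2 GATA motifs and the Gm30786 window 1, the Gm42015 and Gm10494 windows held 1 T-box motif each, and the Gm38512 window had no match. RefSeq lists several starts for some of these genes, of which 1 each is printed. The other 2 Gm30786 windows held 0 GATA motifs, and the other Gm38512 window held 1 T-box motif. Of 32851 RefSeq promoters of this length, 29.8% held a GATA motif, 16.1% a T-box motif and 5.36% both. A match describes the letters of the window and is not evidence of binding.

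Gene desert features were called lower in FOG2_OE more often than rows of the whole table. With an adjusted p under 0.05 per the authors' deposited table, 397 of the 3411 features (11.6%) fell and 45 (1.32%) rose, whereas over all rows 4.65% were called lower and 1.16% higher. The median log2 fold change of the desert features was -0.35, against -0.21 for all rows per the authors' deposited table. In alternatives chosen after seeing the data it was -0.23 without the 4 domains of at least 30 lower calls and -0.075 with only the most abundant feature of each domain. With the median of all rows set to 0, 329 of the 3411 features fell and 60 rose. Of all 34518 rows, 1199 (3.47%) fell and 560 (1.62%) rose on that scale, and the median of the desert features was -0.14. Most features were scarce. The median feature had 6.68 fitted counts per library, 79.4% had fewer than 20, and the fitted value was 0 in FOG2_OE for 74 features and in WT for 26. The median standard error of the log2 fold change implied by the deposited likelihood ratios was 0.80.

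**Figure D1:**
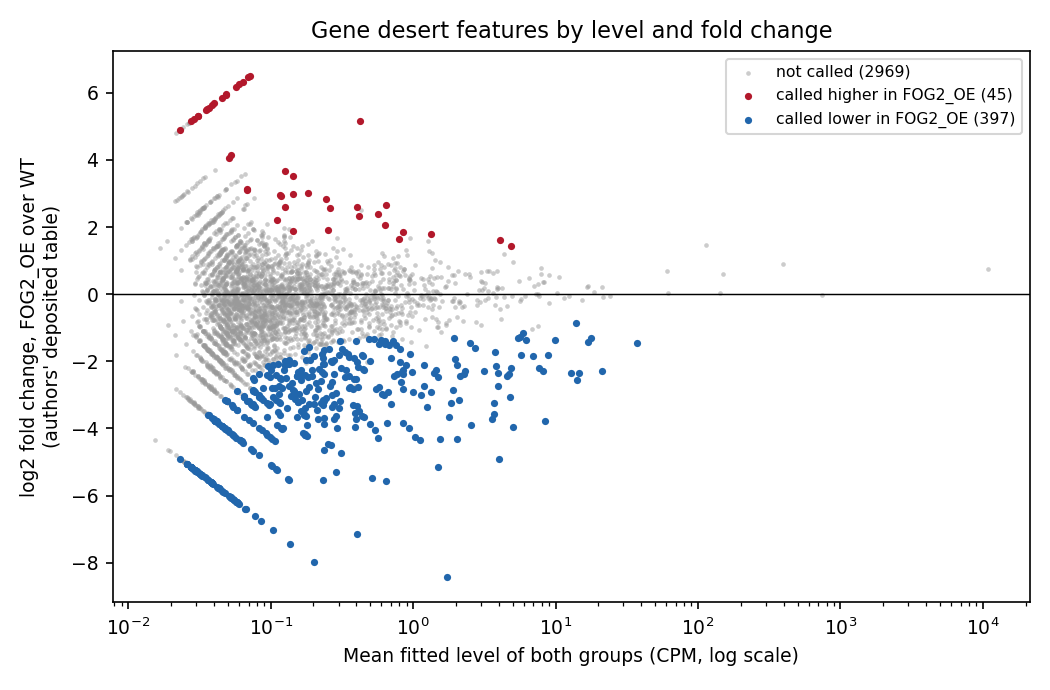
Each point is a gene desert feature, with its mean fitted level of both groups (CPM, log scale) on the x axis and its log2 fold change of FOG2_OE over WT per the authors' deposited table on the y axis. The 397 features called lower (blue) reach into the well-covered range, the 45 called higher (red) are mostly scarce, and the straight streaks at the left are features with few or no counts in either group.

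The share of lower calls was larger in deserts than nearer to genes. Among intergenic rows within 10 kb of a protein-coding gene start 2.88% were called lower, and 4.73% of those at 10 to 100 kb. The share was 7.63% of 1835 desert features at 100 to 200 kb, 17.7% of 810 at 200 to 300 kb, 19.9% of 492 at 300 to 500 kb and 7.11% of 225 at 500 to 1000 kb. None of the 49 features beyond 1000 kb was called lower and 1 was called higher. Much of the middle of this profile came from 4 domains. Without them the shares were 5.2%, 7.57%, 7.89% and 6.70%, and the share over all remaining 3071 features was 6.09%. Higher calls made up 0.656%, 1.08%, 1.53% and 0.494% of the rows in the 4 classes up to 300 kb. Their share was 0.813% at 300 to 500 kb, 3.56% (8 of 225) at 500 to 1000 kb and 2.04% (1 of 49) beyond 1000 kb. Most of these 8 lay in a single stretch of chromosome 3 between Agtr1b and Tbl1xr1.

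**Figure D2:**
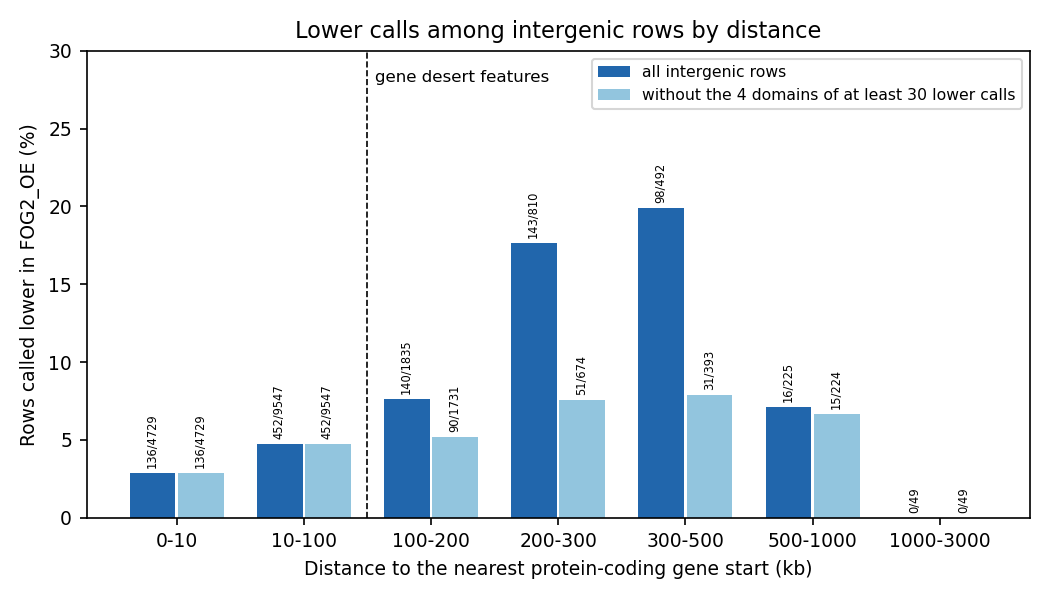
Bars give the percentage of intergenic rows called lower in FOG2_OE by distance to the nearest protein-coding gene start (kb), over all rows (dark) and without the 4 domains of at least 30 lower calls (light), with called and total rows printed above each bar. Desert classes lie right of the dashed line, where the dark bars reach 17.7% and 19.9% and the light bars stay at 7.89% or less.

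Calls were grouped along the chromosomes. Features joined where neighbours lay at most 100 kb apart, with no protein-coding gene start between them, formed 660 domains, of which 309 held 1 feature. Lower calls fell in 74 domains and higher calls in 24, and 0 domains held both. Of the lower calls, 297 lay in 14 domains with at least 5 each, and 34 were the only call of their domain. Of the 45 higher calls, 20 lay in 2 domains with at least 3 each. Among the 264 domains of at least 3 features, the summed level was at least 2-fold lower in FOG2_OE in 53 and at least 2-fold higher in 16. These sums are on the deposited scale, on which the median log2 fold change of all rows was -0.21. They were not recomputed with that median set to 0. Features of a domain can belong to 1 transcript, so that their calls cannot be taken as separate observations. Of the 14 domains, 10 had all their features listed on 1 strand. All features of 55 of the 72 domains with at least 10 were likewise listed on 1 strand. The strands are those listed. The library kit named in the labels keeps no strand information, and how the table came to list strands is not given.

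**Figure D3:**
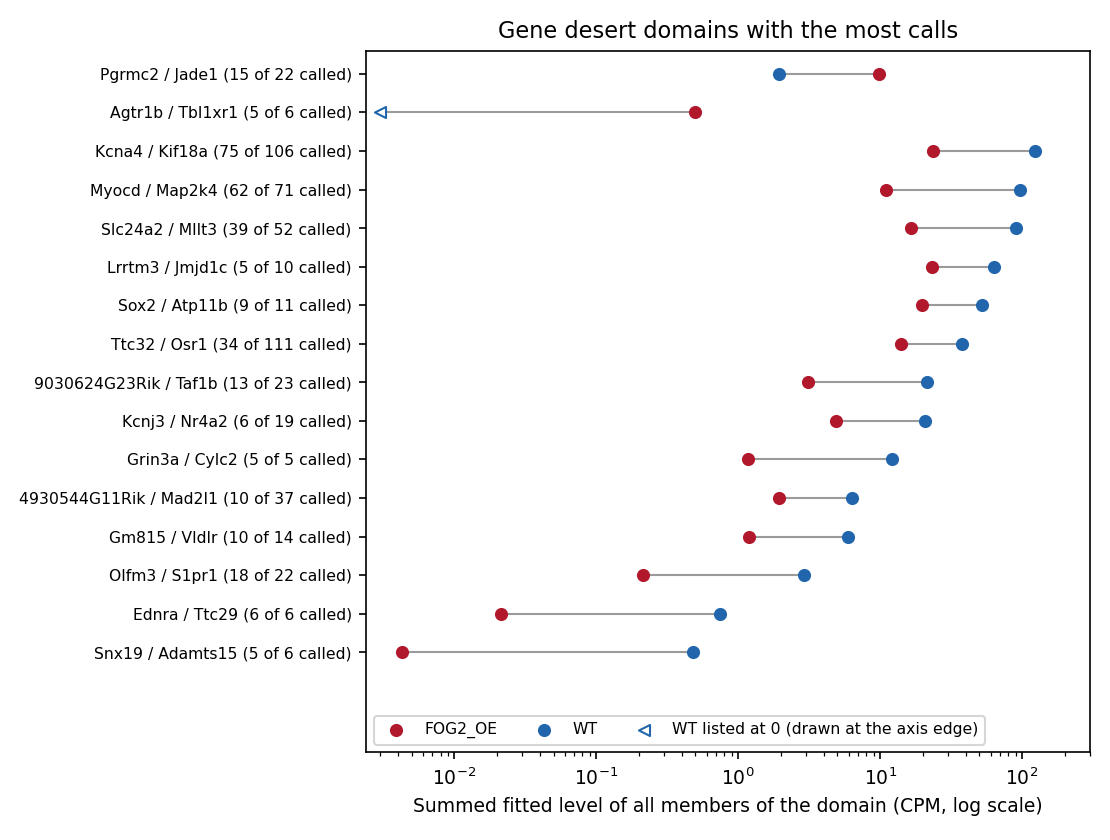
Points give the summed fitted level (CPM, log scale) of all features of a domain in FOG2_OE (red) and WT (blue) for the 2 domains with at least 3 higher calls and the 14 with at least 5 lower calls, each named by its flanking protein-coding genes. FOG2_OE lies to the right of WT in the upper 2 domains and to its left in the other 14.

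In 4 domains of at least 30 lower calls, 210 of 340 features fell and none rose, and their median log2 fold change was -2.54 per the authors' deposited table. Together they held 52.9% of the lower calls. The stretch between Kcna4, a potassium channel of the transient outward current, and Kif18a, a kinesin of the mitotic spindle (chr2:107397544-107798274), had 106 features, 75 of them called, and summed to 23.7 CPM in FOG2_OE against 123 CPM in WT. Between Myocd, the cardiac and smooth muscle coactivator of serum response factor, and Map2k4, a kinase upstream of JNK (chr11:65377768-65685489), 62 of 71 features were called, with sums of 11.0 CPM in FOG2_OE against 97.1 CPM in WT. The domain between Slc24a2, a sodium, potassium and calcium exchanger, and Mllt3, a part of transcription elongation complexes (chr4:87534263-87769804), summed to 16.5 CPM in FOG2_OE against 91.2 CPM in WT, with 39 of 52 features called. In the domain between Ttc32 and Osr1, a zinc finger factor needed for the atrial septum in the mouse (chr12:9131378-9352257), 34 of 111 features were called and the sums were 14.1 CPM in FOG2_OE against 37.6 CPM in WT.

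In the authors' deposited table the feature of the Myocd domain with the smallest adjusted p was MSTRG.13861, which spans 19.2 kb and whose log2 fold change was -3.77 (implied SE 0.30, adjusted p = 4.89e-28). Its level was 1.15 CPM in FOG2_OE against 15.7 CPM in WT. MSTRG.13903, over the Gm30786 start whose promoter is printed above, had 4.86 CPM in FOG2_OE against 24.6 CPM in WT, and its log2 fold change per the authors' deposited table was -2.34 (implied SE 0.24, adjusted p = 6.68e-17). Features at the Map2k4 end of that domain were near or above 0 and were not called. The 3 rows over annotated genes in the same stretch, called in neither direction, summed to 185 CPM in FOG2_OE against 163 CPM in WT. Around the Kcna4 domain, 5 of the 6 intergenic rows closer than 100 kb to a gene start also fell, and these 6 rows summed to 36.4 CPM in FOG2_OE against 139 CPM in WT. Around the Osr1 domain 1 of 50 such rows fell and 1 rose, with sums of 7.18 CPM in FOG2_OE against 8.97 CPM in WT.

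**Figure D4:**
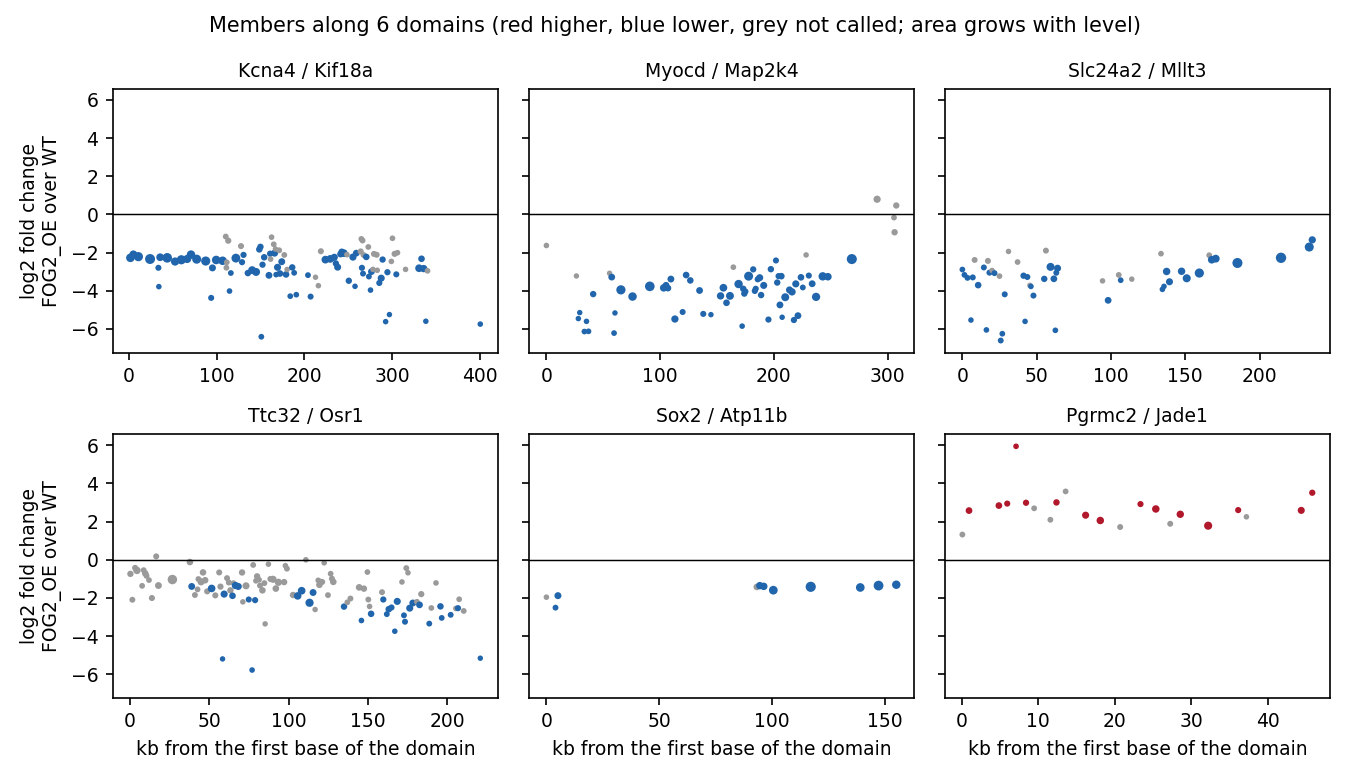
Each panel plots the features of a domain by the distance of their midpoint from the first base of the domain (kb) against their log2 fold change of FOG2_OE over WT, with called features in blue (lower) or red (higher). All 106 features of the Kcna4 domain and all 22 of the Pgrmc2 domain lie on 1 side of 0, and the Myocd domain returns to values near 0 at its right end.

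Several lower domains held features over RefSeq noncoding RNAs. The largest relative difference with at least 10 counts in both groups was between Med13l, a Mediator subunit whose human variants are linked to heart defects, and Tbx3, a T-box repressor that patterns the conduction system (chr5:118823618-118840011). Its 5 features, 4 of them over Gm42015 and called, summed to 0.0463 CPM in FOG2_OE against 6.07 CPM in WT, a 131-fold lower level. MSTRG.66362, 275 kb from the Med13l start and 831 kb from the Tbx3 start, had 0.00841 CPM in FOG2_OE against 3.46 CPM in WT. The adjusted p of MSTRG.66362 was 8.00e-29 per the authors' deposited table. As its FOG2_OE libraries held about 1.99 fitted counts in all against 802 in WT, the ratio of WT over FOG2_OE was 411 with an exact 95% interval of 113 to 3391, which covers counting error only. MSTRG.66361, which overlaps it, had about 0.997 fitted counts in FOG2_OE and 188 in WT. The Gm42015 start shown above lies 3.30 kb from the nearest of these features.

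Between Sox2, a factor of pluripotent and neural cells, and Atp11b, a phospholipid flippase, 9 of 11 features fell (chr3:35248864-35405628). Of these, 7 lay over Gm38512. A RefSeq start of that gene lies within MSTRG.52276, the start printed above lies 0.322 kb from the nearest of the 7 features, and the domain summed to 19.7 CPM in FOG2_OE against 52.5 CPM in WT. MSTRG.52280, of 27.9 kb, had 9.27 CPM in FOG2_OE against 24.8 CPM in WT, with a log2 change of -1.42 per the authors' deposited table (implied SE 0.26, adjusted p = 7.55e-06). All 11 features of this domain lay between -2.51 and -1.31 on that scale, and the 52 of the Slc24a2 domain between -6.61 and -1.33. Near Cdc7, a kinase of DNA replication, and Tgfbr3, the betaglycan receptor, 3 features over Gm33474 fell. MSTRG.65711 stood at 0.0814 CPM in FOG2_OE against 2.91 CPM in WT (log2 change -5.13, implied SE 0.60, adjusted p = 8.84e-13 per the authors' deposited table). MSTRG.65710 was listed at 0 in FOG2_OE and at 0.274 CPM in WT, at least 21.6-fold lower taking 3 counts over the FOG2_OE group as the floor. All 6 intergenic rows of the same stretch within 100 kb of a gene start also fell.

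Lower domains also lay beside genes of channels, receptors and cell adhesion. Beside Kcnj3, a subunit of the acetylcholine-activated potassium channel of atrial muscle, 6 of 19 features fell, and the domain summed to 4.86 CPM in FOG2_OE against 20.7 CPM in WT. MSTRG.46307, which starts 167 kb from the Kcnj3 start, had 2.72 CPM in FOG2_OE against 12.5 CPM in WT, and its log2 fold change per the authors' deposited table was -2.20 (implied SE 0.41, adjusted p = 2.35e-05). Between Olfm3 and S1pr1, a receptor for sphingosine 1-phosphate, 18 of 22 features fell and the sums were 0.214 CPM in FOG2_OE against 2.91 CPM in WT, 13.6-fold lower. The 18 intergenic rows closer than 100 kb to those genes held 0 calls and summed to 23.3 CPM in FOG2_OE against 20.5 CPM in WT. The 3 rows over annotated genes there, 1 of them called lower, summed to 0.522 CPM in FOG2_OE against 3.51 CPM in WT. All 6 features between Ednra, the type A endothelin receptor, and Ttc29 fell, with sums of 0.0212 CPM in FOG2_OE against 0.742 CPM in WT. Beside Vldlr, the very low density lipoprotein receptor, 10 of 14 fell, with 1.20 CPM in FOG2_OE against 5.98 CPM in WT. There 3 of 4 intergenic rows closer than 100 kb to a gene start also fell (3.53 CPM in FOG2_OE against 18.3 CPM in WT). So did 2 of 2 rows over annotated genes (16.7 CPM in FOG2_OE against 78.3 CPM in WT). Between Lrrtm3, a synaptic adhesion gene, and Jmjd1c, of a histone demethylase family, 5 of 10 fell. There MSTRG.8475, of 13.6 kb, had 19.9 CPM in FOG2_OE against 55.0 CPM in WT, and its log2 fold change was -1.46 per the authors' deposited table (implied SE 0.23, adjusted p = 1.56e-07). All 5 features between Grin3a, a subunit of NMDA receptors, and Cylc2 fell, with sums of 1.18 CPM in FOG2_OE against 12.2 CPM in WT.

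The other 3 of the 14 domains with at least 5 lower calls lay beside Taf1b, Mad2l1 and Adamts15. Between 9030624G23Rik and Taf1b, a factor of RNA polymerase I, 13 of 23 features fell and the sums were 3.09 CPM in FOG2_OE against 21.3 CPM in WT. In that stretch 6 of 8 intergenic rows closer than 100 kb to a gene start and 2 of 2 rows over annotated genes also fell. Beside Mad2l1, of the spindle checkpoint, 10 of 37 fell, with 1.92 CPM in FOG2_OE against 6.32 CPM in WT. Between Snx19, a sorting nexin, and Adamts15, a secreted protease, 5 of 6 fell, and all 6 together stood at 0.00431 CPM in FOG2_OE against 0.480 CPM in WT. The smallest adjusted p of all desert features belonged to a feature of a small domain. MSTRG.80033 (chr8:40124681-40145684), of 21 kb and 162 kb from the start of Micu3, a regulator of mitochondrial calcium uptake, had 0.258 CPM in FOG2_OE against 7.73 CPM in WT. Its log2 fold change per the authors' deposited table was -4.90 (implied SE 0.38, adjusted p = 2.80e-29).

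Higher calls were fewer, and 12 of the 45 had at least 20 fitted counts. The domain between Pgrmc2, a heme and steroid binding membrane protein, and Jade1, a scaffold of a histone acetyltransferase complex (chr3:41200573-41246623), had 15 of 22 features called higher and none below 0. It summed to 9.84 CPM in FOG2_OE against 1.95 CPM in WT, 5.05-fold higher. MSTRG.52583, with the smallest adjusted p of that domain, had 0.692 CPM in FOG2_OE against 0.114 CPM in WT, and its log2 fold change per the authors' deposited table was 2.59 (implied SE 0.53, adjusted p = 6.90e-05). MSTRG.52577, MSTRG.52454, MSTRG.52579 and MSTRG.52571 of the same domain also rose, with log2 fold changes of 2.66, 3.51, 2.38 and 3.01 per the authors' deposited table. On the same chromosome, 5 of 6 features between Agtr1b, a receptor of angiotensin II, and Tbl1xr1, a subunit of corepressor complexes, rose (chr3:21409245-21489645). All 6 summed to 0.50 CPM in FOG2_OE and were listed at 0 in WT, at least 38.6-fold higher. MSTRG.51956 and MSTRG.51953, over the RefSeq noncoding RNA Gm31610, had 0.144 and 0.127 CPM in FOG2_OE.

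Of the other higher calls, 19 were the only call of their domain. MSTRG.33515 (chr16:24097492-24099410), 109 kb from the start of Bcl6, a transcriptional repressor, had 0.822 CPM in FOG2_OE against 0.0216 CPM in WT. Its log2 fold change of 5.15 (implied SE 0.83) had the smallest adjusted p of the higher desert features per the authors' deposited table, 8.07e-10. MSTRG.526, between Lmbrd1 and Adgrb3, rose by 1.45 on the log2 scale per the authors' deposited table (implied SE 0.33, adjusted p = 0.000701), with 7.12 CPM in FOG2_OE against 2.61 CPM in WT. MSTRG.38750, 1.88 kb from the Gm10494 start printed above, stood at 0.139 CPM in FOG2_OE and was listed at 0 in WT, at least 10.8-fold higher. MSTRG.87878 stood at 0.120 CPM in FOG2_OE and was likewise listed at 0 in WT, at least 9.29-fold higher. MSTRG.29223, which overlaps the RefSeq protein-coding gene Cdh12, stood at 0.236 CPM in FOG2_OE against 0.0171 CPM in WT.

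The desert features were also grouped by the class of their nearest protein-coding gene, and the counts of each class stand beside 11.6% lower and 1.32% higher calls over all of them. Of 131 features nearest to a gene of cardiac rhythm channels 81 fell and 0 rose, 75 of them at Kcna4 and 6 at Kcnj3, and the median log2 fold change was -2.36 per the authors' deposited table. Of 68 nearest to cardiac transcription factors 25 fell and 0 rose, 23 at Myocd and 1 each at Gata6 and Mef2a. Of 129 nearest to developmental transcription factors 17 fell, 11 of them at Osr1 and 4 at Tshz3, and 2 rose, at Bcl6 and Bcl11a. The feature of that class with the most counts among the called was MSTRG.46054 beside Zeb2, a repressor of epithelial genes, which had 9.88 CPM in FOG2_OE against 18.0 CPM in WT (log2 change -0.87, adjusted p = 0.0257 per the authors' deposited table). It was not called with the median of all rows set to 0 (adjusted p = 0.153) or with an F distribution of 10 residual degrees of freedom (adjusted p = 0.195). Near calcium handling genes 2 of 7 features fell. Both were nearest to Ryr2, the calcium release channel, at 558 kb (MSTRG.21891) and 554 kb (MSTRG.21892) from its start. The larger difference was at MSTRG.21891, with 0.460 CPM in FOG2_OE against 3.35 CPM in WT, and MSTRG.21892 had 3.02 CPM in FOG2_OE against 10.9 CPM in WT. In the authors' deposited table their adjusted p values were 1.15e-06 and 1.54e-05.

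Near growth factors and ligands 4 of 25 features fell. Of these, 2 were nearest to Ccn2, a matrix-associated growth regulator, at 105 and 110 kb from its start. The other 2 were nearest to Fgf12, which binds sodium channels, at 596 and 597 kb. With the median of all rows set to 0 none of these 4 calls was kept, with adjusted p values of 0.0784 for MSTRG.7278, 0.0504 for MSTRG.7284, 0.0581 for MSTRG.33555 and 0.0850 for MSTRG.33556, and with an F distribution of 10 residual degrees of freedom these were 0.184 to 0.219. Near adhesion and synaptic genes 5 of 130 fell, all at Lrrtm3, and the median of that class was 0.34 per the authors' deposited table. The features nearest to Lrrtm3 lay 914 to 941 kb from its start. None of 30 features near G protein coupled receptors and their regulators was called, including 26 beside Chrm2, the muscarinic receptor of atrial muscle, which summed to 10.4 CPM in FOG2_OE against 12 CPM in WT. None of 11 near matrix genes was called. The 12 features beside Nr2f2, a nuclear receptor of atrial identity, summed to 27.5 CPM in FOG2_OE against 20.03 CPM in WT, with 0 called. These classes count features and not genes, and the 81 calls near rhythm channels lay in 2 domains.

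Many deserts with many features held no call. Of the 72 domains with at least 10 features 42 had none, and 7 of the 15 with at least 40 features had none. The largest of these lay between the adhesion receptor genes Adgrl2 and Adgrl4, with 81 features and sums of 43.1 CPM in FOG2_OE against 33.2 CPM in WT. The 78 features between Epha7, an ephrin receptor, and Map3k7, the kinase TAK1, summed to 24.0 CPM in FOG2_OE against 25.5 CPM in WT. Beside Pde3a, a phosphodiesterase of heart muscle, 58 features summed to 21.5 CPM in FOG2_OE against 25.3 CPM in WT. The 60 features beside Rora, a nuclear receptor of the circadian clock, summed to 16.7 CPM in FOG2_OE against 12.6 CPM in WT. Beside Kcnh5, a potassium channel gene, 42 features summed to 43.2 CPM in FOG2_OE against 28.7 CPM in WT, and 40 of them lay above 0. The largest domain of all, with 115 features between Sash1 and Samd5, held 1 lower call, although 100 of its features lay below 0 and the sums were 8.80 CPM in FOG2_OE against 14.8 CPM in WT.

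Some desert features flank microRNA genes, whose mature strands are shown with the seed (bases 2 to 8) in capitals because 4 of these 5 fall into pairs with a shared seed. They are RefSeq sequences on GRCm38.p6, given 5′ to 3′.
mmu-miR-30a-5p, chr1:23272274-23272295, plus strand: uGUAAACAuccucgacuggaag
mmu-miR-30c-5p, chr1:23291714-23291736, plus strand: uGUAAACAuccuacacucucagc
mmu-miR-221-3p, chrX:19146307-19146329, minus strand: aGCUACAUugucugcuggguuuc
mmu-miR-222-3p, chrX:19146901-19146923, minus strand: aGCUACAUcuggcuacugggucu
mmu-miR-148a-3p, chr6:51269829-51269850, minus strand: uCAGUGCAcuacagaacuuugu
Within 5 kb of 8 microRNA hairpins lay 15 desert features, and 0 were called. MSTRG.489, of 13.4 kb, starts 38 bases after the Mir30a hairpin and stood at 144 CPM in FOG2_OE against 140 CPM in WT. Its log2 fold change per the authors' deposited table was 0.05 (implied SE 0.25, adjusted p = 0.955). MSTRG.490, MSTRG.494 and MSTRG.496 lie before the Mir30c-2 hairpin, whose product shares the miR-30a seed, and had log2 fold changes of 0.06, -0.12 and 0.05 per the authors' deposited table. Members of the miR-30 family are abundant in heart muscle. MSTRG.69495 ends 10 bases from the Mir148a hairpin and had 4.23 CPM in FOG2_OE against 4.46 CPM in WT. MSTRG.88878 and MSTRG.88882 lie 12 bases from Mir221 and 26 bases from Mir222, whose products share a seed and act in vascular cells. MSTRG.88878 had 0.524 CPM in FOG2_OE against 0.342 CPM in WT, and MSTRG.88882 had 0.468 CPM in FOG2_OE against 0.289 CPM in WT. In the authors' deposited table both had adjusted p values far from the threshold, 0.517 and 0.473.

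**Figure D5:**
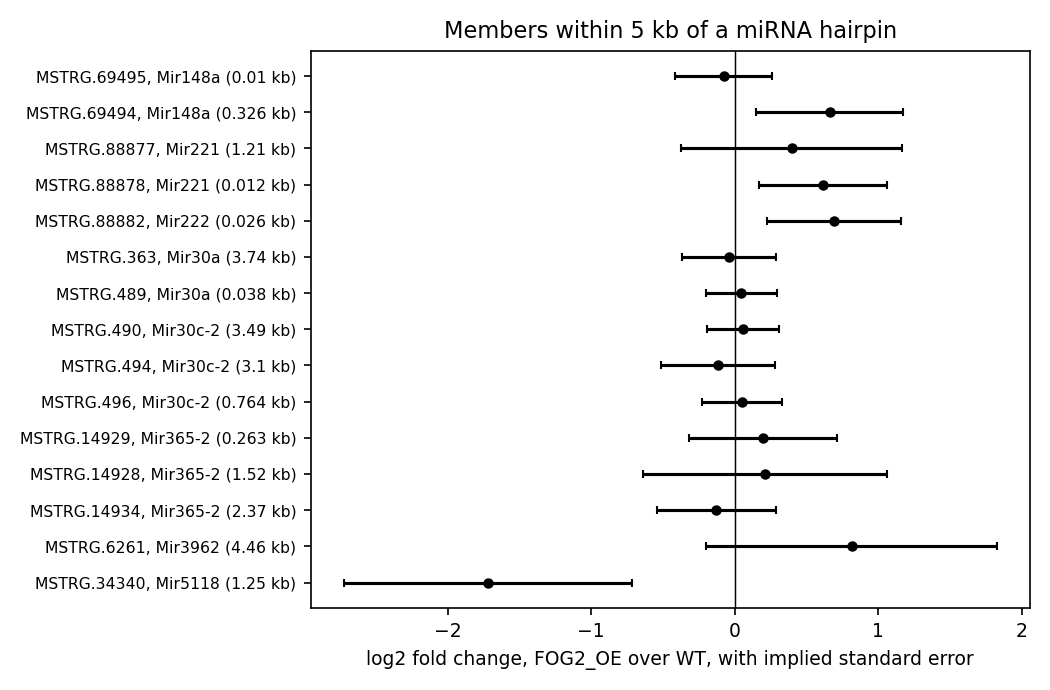
Points give the log2 fold change of FOG2_OE over WT per the authors' deposited table, with bars of 1 implied standard error, for the 15 features within 5 kb of a microRNA hairpin, named with the nearest hairpin and the gap (kb). The features beside Mir30a and Mir30c-2 lie close to 0 with short bars, and the bars of the scarce features are wide.

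None of the 8 desert features with the most reads was called, and 6 of them were at most 283 bases long. MSTRG.6916 (chr10:11491974-11492256), of 283 bases beside Epm2a, the gene of laforin, alone stood at 13653 CPM in FOG2_OE against 8107 CPM in WT, and its adjusted p per the authors' deposited table was 0.528. All desert features summed to 16659 CPM in FOG2_OE against 11187 CPM in WT, and without it to 3006 CPM in FOG2_OE against 3080 CPM in WT. MSTRG.3706 and MSTRG.3705, listed on opposite strands of largely the same bases, stood at 736 and 181 CPM in FOG2_OE and at 750 and 118 CPM in WT. MSTRG.67963, MSTRG.51662 and MSTRG.41712 had 517, 167 and 75.4 CPM in FOG2_OE and 275, 61.0 and 46.7 CPM in WT. Apart from MSTRG.489 and its neighbour MSTRG.362, at 62.4 CPM in FOG2_OE against 60.3 CPM in WT, each of the 8 features with the most reads overlapped a feature listed on the other strand. Reads of both strands cannot be told apart with this kit, so that the values of such pairs are uncertain.

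Longer features were called lower more often. Of the 1977 features under 300 bases 6.42% fell, and 46.3% of the 82 features of at least 5 kb, against 2.89% and 15.1% of all rows of these lengths. Without the 4 large domains the shares of the desert features were 4.13% and 29.5%. The median length was 237 bases. At the threshold itself, the 3 features just inside were MSTRG.56892, MSTRG.44264 and MSTRG.2200, with log2 fold changes of 0.11, -0.39 and 0.65 per the authors' deposited table. The 3 just outside were MSTRG.41617, MSTRG.39711 and MSTRG.7288, with -0.02, -1.17 and -1.84. The 5 features farthest from a gene start, 2.11 to 2.13 Mb from Cntnap5b, were MSTRG.3313, MSTRG.3320, MSTRG.3321, MSTRG.3322 and MSTRG.3327, and none was called. MSTRG.3327 had the most reads of them, with 3.67 CPM in FOG2_OE against 2.30 CPM in WT.

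All calls rest on the likelihood ratio test of the authors' deposited table. The labels do not say whether libraries came from separate animals, so that its p-values measure only the spread between these libraries. The same ratios were also set against an F distribution of 10 residual degrees of freedom, which is stricter for small groups. Then 132 of the 3411 desert features fell and 3 rose, against 370 (1.07%) and 70 (0.203%) of all 34518 rows. The value of 10 was a chosen setting. The 6 libraries in 2 groups leave 4 degrees of freedom, with which 0 fell and 0 rose (459 and 59 at an unadjusted p under 0.05).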

How the data were processed

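Per the labels' protocols, total RNA of left atria was depleted of ribosomal and polyadenylated RNA. The library kit was TruSeq RNA v2. The build mm10 and the tools edgeR, STAR, deepTools and HTSeq 0.6.0 are named, without roles, per the submitters' processing notes. For 34518 rows the authors deposited log2 fold changes and log2 CPM, the likelihood ratio as a score, and the p-value before and after Benjamini-Hochberg adjustment, a step that was recomputed. The 6 sample columns hold fitted values (largest relative spread of within-group ratios 1.8e-14), so that no count model, left-out library or spread between replicates could be computed, and the authors' deposited test (a likelihood ratio with the column names edgeR writes, adjusted p under 0.05) was used. Effective libraries held 71180401 to 84907173 counts.

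Effective library sizes, fitted CPM, the dispersion that gives each deposited likelihood ratio (ratios of at least 0.1, otherwise from 201 rows of like abundance) and the implied standard error were computed in Python 3.11.15 (pandas 2.3.3, scipy 1.17.1, numpy 2.4.6), and the procedure was tested on simulated data. Starts in the table count from 0 and are printed counting from 1. Intervals and floors cover counting error only. Calls were recomputed under other scales, reference distributions, filters, distances and domain gaps.

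The features and lists were chosen with earlier results of these data known. Features named were the 12 higher and 12 lower with the smallest adjusted p, the 8 with the most reads, domains with at least 5 lower or 3 higher calls, 3 on either side of the threshold, the 5 farthest from a gene and up to 4 called per list. Chosen after their values were seen were the features beside microRNAs, and those named with values in the domains flanked by Tbx3, Sox2 and Tgfbr3. The same holds for MSTRG.46054 and for the uncalled domains and genes given as examples.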

Additional observations from a re-analysis of the deposited data

How the results depend on the processing

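No paired analysis was possible because the sample columns hold fitted values, and for the same reason no replicate was left out and no other count normalization (edgeR's TMM against DESeq2's size factors) was run. Of the 397 lower and 45 higher calls, 261 and 27 had an adjusted p under 0.01. With an F distribution of 10 residual degrees of freedom 132 fell and 3 rose, and with 4 degrees of freedom 0 fell and 0 rose (459 and 59 before adjustment, at p under 0.05; the smallest adjusted p was 0.583). With at least 20 fitted counts, and p-values adjusted again over those rows alone, 160 fell and 14 rose, beyond 200 kb 257 and 17, and over 100 kb from any gene start 91 and 14. In alternatives chosen after seeing the data, 187 fell and 45 rose without the 4 large domains, and 52 and 15 with only the most abundant feature of each domain. These counts shrink partly because fewer features enter them. At the deposited adjusted p the lower share was 21.3% of 704 features with at least 20 fitted counts. It was 16.3% of 1576 beyond 200 kb and 13.7% of 662 over 100 kb from any gene start. Without the 4 domains it was 6.09% and with 1 feature per domain 7.88%, against 11.6% of all desert features. Of all rows, 6.07% fell at 20 to 100 fitted counts, 9.30% at 100 to 1000 and 16.2% above 1000. The median log2 fold change was -0.52 beyond 200 kb, -0.49 over 100 kb from any gene start, -0.14 with the median of all rows centred at 1, -0.23 without the 4 domains and -0.075 with 1 feature per domain. Counts under the other alternatives stayed within 1.5 times. Of the 61 features named by rule, the 8 with the most reads, the 5 farthest and the 3 just inside the threshold had no call to lose. Among the others, 4 lost their call with the centred scale (MSTRG.33555, MSTRG.33556, MSTRG.7278 and MSTRG.7284). With the F distribution of 10 degrees of freedom 21 lost it, and no called one changed direction. Of the 12 named higher, only MSTRG.33515, MSTRG.51956 and MSTRG.52583 kept their call with that distribution. MSTRG.3706, never called, was at -0.03 and with the centred scale at 0.19. The median biological coefficient of variation was 52.3%, which with few counts leaves wide errors.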
